A study of Mus musculus with 26 samples.

Results

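The 38 Hox genes examined here comprised 10 genes of the HoxA cluster, 10 of HoxB, 9 of HoxC and 9 of HoxD, out of 21000 genes with a RefSeq mRNA. A listed region was counted as a Hox region if it overlapped one of these genes or the 1500 bp on either side of its start site, in the mm10 mouse genome. The membership was set by gene name and position and used no measured value. HoxA members lie on chromosome 6, HoxB on 11, HoxC on 15 and HoxD on 2. The paralogue number of each gene gives its place in the cluster, with low numbers at the 3′ end.

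Hox genes encode the homeodomain transcription factors that set position along the body axis, and within a cluster they are switched on in order from the 3′ to the 5′ end as the embryo forms. In embryonic stem cells the clusters are silent and are a textbook case of bivalent chromatin, in which H3K4me3, placed by Trithorax-group methyltransferases and typical of active promoters, is found together with H3K27me3, placed by Polycomb repressive complex 2 and typical of repressed genes. A sequential ChIP (reChIP) purifies nucleosomes with a first antibody and then purifies the eluate with the second, so that chromatin carrying both marks is retained. The authors caution that their H3K4me3 antibody was reported to bind H3K4me2 as well. Some of the reChIP signal may therefore come from nucleosomes with H3K4me2 and H3K27me3.

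The data were 26 libraries from mouse embryonic stem cells of the E14 line grown in serum and LIF. Each set held total H3K4me3 and total H3K27me3, sequenced from a fraction of the first eluate, and both orders of reChIP (H3K4me3 then H3K27me3, K4-K27, and the reverse, K27-K4). Non-clonal E14 cells gave 2 replicates of each, replicate 1 in sequencing batch A and replicate 2 in batch B, with a single IgG–IgG control in replicate 1. Wild-type (WT) clones 57 and 58 and Dppa2/4 double-knockout (DKO) clones 43 and 53, all from the E14 strain and all in batch C, gave 1 library of each kind per clone, with an IgG–IgG control for clone 57 alone. Dppa2 and Dppa4 are small paired DNA-binding proteins of pluripotent cells. Each genotype rested on 2 single-cell-derived lines, so that a difference between genotypes and a difference between these particular lines cannot be told apart. Libraries held 6741244 to 47903462 reads, and values are log2 RPM/kb, that is, reads scaled to the total of the library (RPM) and to the length of the region, on a log2 scale. E14 replicates came from separate passages on separate days and differed in depth, so that batch, replicate, passage and depth cannot be told apart. The p-values measure the spread between these samples. The exception is the comparison of reChIPs with totals, where kinds of ChIP were pooled.

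The identity of the samples was examined at start sites. All 7 stem cell genes examined had total H3K4me3 of 0.74 to 1.83 log2 RPM/kb in E14 cells. Total H3K27me3 was -2.30 to -0.96 at 6 of them, Pou5f1 and Nanog included, but 0.90 and 0.65 at Esrrb in replicates 1 and 2, where K4-K27 was 3.31 and 3.71. In these replicates total H3K4me3 was 0.93 and 0.91 at Gata6 and 1.14 and 1.00 at Gata4, both endoderm genes. Sox17, Foxa2, Pax6, Sox1, T and Eomes had no listed H3K4me3 start-site region in E14. The H3K4me3 range alone thus does not set the stem cell genes apart. At the Dppa2 start site total H3K4me3 was 1.90 and 0.77 in WT clones 57 and 58 and 2.08 and 1.34 in DKO clones 43 and 53, and at Dppa4 the values were 2.34 and 1.45 against 2.39 and 1.56. H3K4me3 at a start site does not measure transcript or protein, so these values do not check the knockout. Clone 57 lay above clone 58 in total H3K4me3 and total H3K27me3 at all 36 Hox start sites listed in the WT K4-K27 table.

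In E14 cells the 4 clusters were covered by a few very wide doubly purified regions. Start sites of all 38 members fell in 8 regions, and the 8 regions had identical coordinates in the K4-K27 and the K27-K4 tables. So did 21857 of the 24540 regions of the K4-K27 table. Identical coordinates were thus not particular to Hox regions, and the 2 tables do not give separate measures of width. A start-site region was listed for 64.46% of the 21000 genes in the K4-K27 table and for 71.83% in the K27-K4 table. The HoxC cluster, from Hoxc13 to Hoxc4, lay in 1 region of 128100 bp at chr15:102915601-103043700, the widest of the 24540 regions of the K4-K27 table and of the 36235 regions of the K27-K4 table. HoxB from Hoxb9 to Hoxb2 lay in 113100 bp, HoxA from Hoxa2 to Hoxa11 in 106800 bp, and HoxD from Hoxd13 to the Hoxd3 start in 63450 bp, which were the next widest of the 21857 regions that both tables listed. The genes set apart from their neighbours had regions of their own, with Hoxa13 in 20550 bp, Hoxb13 in 45750 bp and Hoxb1 in 16200 bp. Hoxd4 and Hoxd1 shared 49050 bp, which also held the 3′ part of the long Hoxd3 transcript. The median of the 8 widths was 56250 bp, where the corresponding medians of all regions in the K4-K27 and K27-K4 tables were 3000 bp and 2400 bp.

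**Figure D1:**
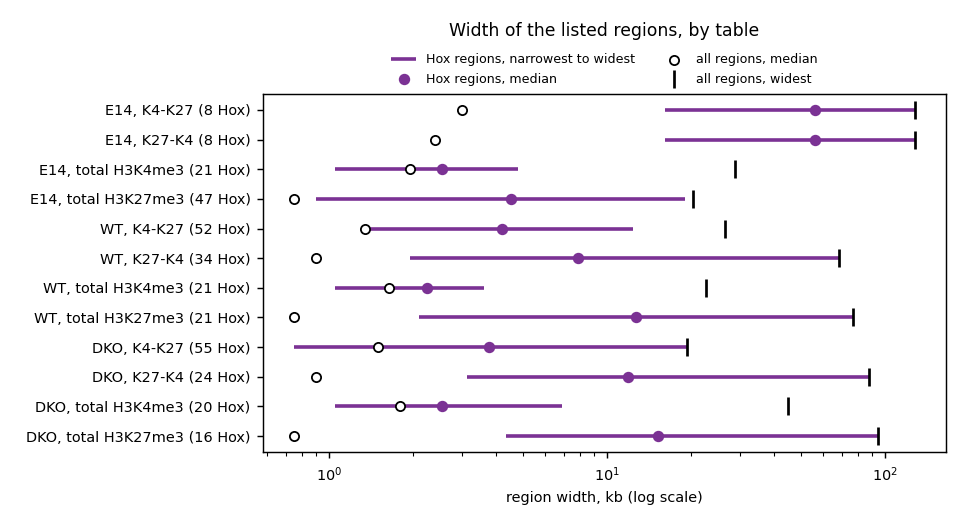
Width in kb, on a log scale, of the regions listed in each of the 12 tables, with the Hox regions as purple lines from narrowest to widest and all regions as their median and widest. A Hox region was the widest of all in 7 tables, the same HoxC region in both E14 reChIP tables, and in the 3 tables of total H3K4me3 the Hox medians were 2250 to 2550 bp.

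Listed Hox widths differed between the tables of the marks. In the H3K4me3 tables the median Hox region was 2550 bp in E14, 2250 bp in WT and 2550 bp in DKO cells, and between 34.9% and 37.3% of all regions were as wide. In the H3K27me3 tables the median was 4500 bp in E14, 12750 bp in WT and 15300 bp in DKO cells, widths reached by 3.53%, 0.644% and 0.405% of regions. A Hox region was the widest of its table in 7 of the 12 tables, from the HoxC region above to the 94200 bp HoxC region of the DKO H3K27me3 table and the 19350 bp HoxB region of the DKO K4-K27 table. Among the 7, the K4-K27 and K27-K4 tables of E14 count the same HoxC region. Widths in all 12 tables were whole multiples of 150 bp, a step other than the bin size in the stated peak-calling settings. The settings behind the tables remain uncertain, so Hox widths are read against all regions of the same table. Whether the mark or the peak calling lay behind differences between tables was not tested.

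Coverage of start sites by listed regions also differed between the marks. Total H3K27me3 regions covered the start sites of 33 of 38 members in E14, 37 in WT and 36 in DKO cells, against 12.94%, 16.91% and 18.78% of all genes. Total H3K4me3 regions covered only 15, 14 and 16 members, against 58.85%, 66.24% and 61.51% of all genes. K4-K27 regions covered 36 members in WT clones, all but Hoxd10 and Hoxd12, and 36 in DKO clones, all but Hoxa6 and Hoxc6, while K27-K4 regions covered all 38 in both. In E14 the members with no H3K27me3 start-site region were Hoxa3, Hoxa7, Hoxa9, Hoxd11 and Hoxd12. Hoxd1 had none in either clone table and Hoxd4 none in the DKO table. The authors describe noisier signal in the in-line totals of E14 cells and few peaks called from them. A start site outside the listed regions therefore need not lack the mark. In the WT K4-K27 region at Hoxd1, total H3K27me3 was 2.50 and 1.71 in clones 57 and 58.

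Signal at the 8 E14 regions was high in both reChIPs and in total H3K27me3, and middling in total H3K4me3. Over the HoxA region from Hoxa2 to Hoxa11, K4-K27 was 2.52 and 2.48 and K27-K4 was 2.19 and 3.40 log2 RPM/kb in replicates 1 and 2. Total H3K27me3 there was 0.75 and 0.67, total H3K4me3 was 0.26 and 0.25, and IgG–IgG was -0.40. At Hoxb1, the gene of the hindbrain segments at the 3′ end of HoxB, K4-K27 was 2.21 and 1.83, K27-K4 was 1.88 and 2.73, total H3K27me3 was 0.77 and 1.04, and total H3K4me3 was -0.20 and -0.40. Every reChIP library lay above every total library at each of the 8 regions. Among the 21857 shared regions the Hox values ranked at percentiles 93.9 to 99.9 for total H3K27me3, 91.7 to 98.2 for K4-K27, 82.9 to 94.1 for K27-K4 and only 22.2 to 47.7 for total H3K4me3. These values are averages over each region, and the Hox regions were far wider than most, which weighs against narrow peaks. Over IgG–IgG, which had 111 to 827 reads in these regions, K4-K27 was 2.38 to 2.90 higher and K27-K4 2.67 to 3.19 higher on the log2 scale, against medians of 1.38 and 2.07 for all shared regions. The stated peak calling used IgG–IgG as control, so listed reChIP regions were chosen for exceeding it and only the comparison with other listed regions is informative.

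**Figure D2:**
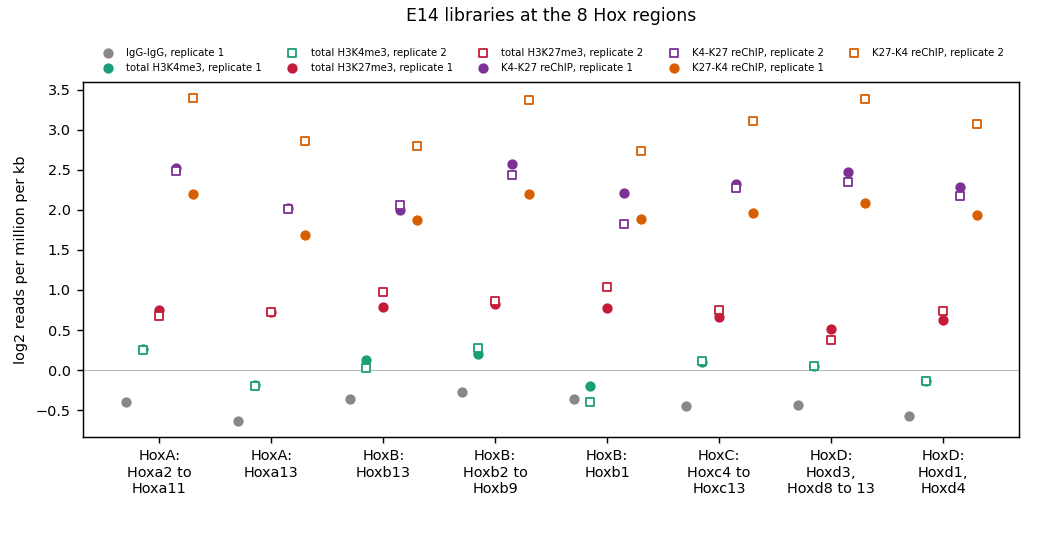
Log2 RPM/kb in each of the 9 E14 libraries at the 8 regions that hold the 38 Hox start sites, with replicate 1 as filled circles and replicate 2 as open squares. The 4 reChIP libraries lie above the 4 total libraries at every region, and the 2 K27-K4 replicates lie on either side of the K4-K27 replicates at every region but Hoxb1.

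The comparison of reChIPs with totals asked whether signal rose after the second purification. All 8 regions were called higher, by 1.70 (SE 0.35) at Hoxb13 to 2.32 (SE 0.34) at the HoxD region from Hoxd13 to Hoxd3, with adjusted p from 0.00357 to 0.00802 (limma, 4 libraries against 4, called at a log2 difference above 1 and adjusted p below 0.05). Each side pooled 2 kinds of ChIP from 2 replicates, so its 4 libraries were not 4 independent samples. The spread behind these p-values therefore also held differences between kinds of ChIP. The regions tested were those listed in both reChIPs, which favours high reChIP values. Of all shared regions 29.3% were called higher and 0% lower, and the median of all was 1.18 against 2.05 for the Hox regions. Within replicate 1 the Hox median was 1.80 and within replicate 2 it was 2.29, against 0.771 and 1.71 for all regions. With each library centred on its own median the Hox median was 0.916 and none of the 8 was called (lowest adjusted p 0.119), while all 8 differences stayed above 0. Without replicate 1, 1 of the 8 was called.

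The order of the antibodies made no called difference at any Hox region. K27-K4 minus K4-K27 was 0.24 (SE 0.93) at the HoxC region to 0.32 (SE 0.94) at the HoxD region from Hoxd13 to Hoxd3, with adjusted p of at least 0.853 in limma. The next largest differences were 0.30 at Hoxb13, 0.30 at Hoxa2 to Hoxa11, 0.29 at Hoxb1 and 0.28 at Hoxb2 to Hoxb9. None of the 8 regions passed an unadjusted p below 0.05, and 0% of all shared regions were called. The replicates disagreed in direction. In replicate 1 K27-K4 was lower at all 8 regions, by -0.39 to -0.12, and in replicate 2 it was higher at all 8, by 0.73 to 1.03. The K27-K4 library of replicate 1 had 6741244 reads and that of replicate 2 had 47903462. With the replicate number as a block, 1523 of the 21857 regions were called and still none of the 8.

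In the totals, averaged over the width of each region, the Hox regions were tilted towards H3K27me3. Total H3K27me3 exceeded total H3K4me3 at all 8 regions, whereas the difference was above 0 at 31.4% of all shared regions. Differences ran from 0.39 (SE 0.17, adjusted p = 0.0593 in limma) at the HoxD region from Hoxd13 to Hoxd3 to 1.20 (SE 0.17, adjusted p = 3.72e-05) at Hoxb1, with a Hox median of 0.70 against -0.73 for all regions. The difference was above 0 in 8 of 8 regions within each replicate. Hoxb1 alone was called, against 4.52% of all regions, and 7 of the 8 regions had an adjusted p below 0.05 when no minimum difference was asked for. Relative to the median of all regions, with each library centred, the Hox median was 1.57 and all 8 were called. Over all regions that centring turned the split from 989 higher and 9689 lower calls to 5897 and 6979. Values from different antibodies are not on one scale, so the Hox differences are read against those of all regions. They are averages over 16200 to 128100 bp, in which a narrow H3K4me3 peak weighs little. In the start-site regions listed for E14 total H3K4me3, median total H3K4me3 was 0.86, 0.87, 1.05 and 0.94 for HoxA to HoxD. Median total H3K27me3 there was 0.95, 0.94, 0.75 and 0.87, in regions chosen for H3K4me3.

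WT clones gave the same tilt in narrower regions. Of the 52 Hox regions listed in both WT reChIP tables, 48 had more total H3K27me3 than total H3K4me3, against 28.3% of 12025 regions, and the Hox median was 1.21 against -0.87. In limma 5 of 52 were called higher, against 3.56% of all regions, and with the clone as a block 30 of 52, against 7.77%. With each library centred 49 of 52 were called, and the calls over all regions went from 428 higher and 3479 lower to 3367 and 3342. The largest difference was 3.16 (SE 0.84, adjusted p = 0.000978) at a region within Hoxb3, and Hoxa7, Hoxa3 and the long Hoxd3 transcript held the other called regions. The 4 exceptions, with differences of -0.92 to -0.02, covered the Hoxc13, Hoxa4 and Hoxd1 start sites and a region within Hoxd3, and none of them passed the test.

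Levels at single start sites varied more within a cluster than between clusters. In the WT K4-K27 table, which gave 36 members a start-site region and placed them in 32 distinct regions, the median K4-K27 level in clones 57 and 58 was 2.67 and 2.62 for HoxA, 2.85 and 2.70 for HoxB, 2.47 and 2.64 for HoxC, and 3.27 and 2.82 for HoxD. HoxD thus had the highest median in both WT clones in this table, although its members ranged from 1.48 to 4.27. That ranking did not hold for all regions and cell lines. Over start-site regions of the E14 H3K27me3 table, HoxD had the lowest K4-K27 median in E14 cells. The medians there were 2.56, 2.85, 2.39 and 2.23 for HoxA to HoxD. Over start-site regions of the E14 H3K4me3 table HoxD was highest, but with only 2 members. In the WT K4-K27 table, total H3K27me3 medians of clones 57 and 58 differed by less between clusters. They were 2.41 and 1.57, 2.25 and 1.44, 2.28 and 1.45, and 2.21 and 1.57 for the 4 clusters in order. The spread between clones 57 and 58 was larger than the spread between clusters for that mark. These are levels of a mixed population, in which fewer alleles or cells carrying a mark and less of the mark per cell cannot be told apart.

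The same few genes stood at the top in both reChIPs and in total H3K4me3. Hoxd1, at the 3′ end of HoxD, had K4-K27 of 4.61 and 3.93 and total H3K4me3 of 2.77 and 1.48 in clones 57 and 58. Hoxc13, at the 5′ end of HoxC and a regulator of hair and nail keratins, had K4-K27 of 4.27 and 3.68 and total H3K4me3 of 2.85 and 1.48. Hoxd13, a limb and digit gene at the 5′ end of HoxD, had K4-K27 of 4.34 and 3.58 and total H3K4me3 of 2.34 and 1.26. With Hoxa4 (K4-K27 4.08 and 3.43) they were the highest 4 of the 36 in K4-K27, in K27-K4 and in total H3K4me3. Hoxd4 was the lowest in all 3, at 1.57 and 1.40 for K4-K27, 2.03 and 1.66 for K27-K4 and -0.01 and -0.24 for total H3K4me3, and Hoxc10 was next.

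Total H3K27me3 did not follow that order. Hoxc13 had the least H3K27me3 of the 36 start sites, 1.57 and 0.93, while Hoxd4, with 1.88 and 1.32, lay close to Hoxd8 at 2.07 and 1.10. The highest were Hoxc6, at 2.62 and 1.91, and Hoxc9, at 2.75 and 1.72. Across the 32 distinct start-site regions the rank correlation of K4-K27 with total H3K4me3 was 0.742 and with total H3K27me3 -0.118 in WT clones, and 0.751 and -0.169 in DKO clones. K27-K4 gave 0.695 and 0.227 in WT clones. In E14 libraries, over 30 distinct start-site regions of the E14 H3K27me3 table, the values were 0.928 and 0.347 for K4-K27 and 0.929 and 0.369 for K27-K4. These points share libraries and regions of unequal width, and in the WT table K4-K27 had a rank correlation of -0.335 with width. WT libraries over the 30 E14 regions gave 0.892 with H3K4me3 and 0.703 with H3K27me3, so that the weight of H3K27me3 depended on which regions were taken.

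**Figure D3:**
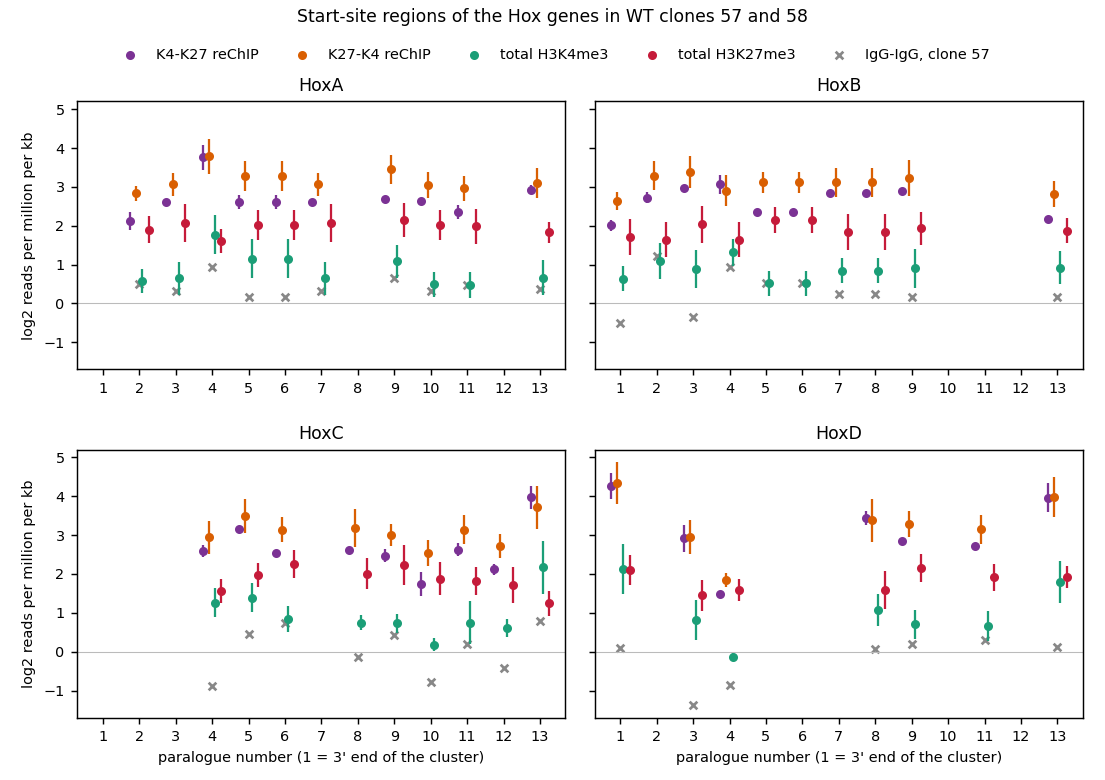
Log2 RPM/kb at the start-site region of each Hox gene against its paralogue number, for the 36 members listed in the WT K4-K27 table, with the mean of clones 57 and 58 as a point and the clones as the ends of the bar. The reChIP levels are highest at Hoxd1, Hoxc13, Hoxd13 and Hoxa4 and lowest at Hoxd4, and genes in 1 shared region have equal values.

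Position along the cluster gave no trend common to the clusters. In the E14 H3K27me3 table the rank correlation of total H3K27me3 with paralogue number was 0.703 over 7 HoxA genes, 0.328 over 10 HoxB genes, -0.8 over 9 HoxC genes and 0.162 over 7 HoxD genes. For K4-K27 it was -0.162, 0.426, 0.167 and -0.342. In WT clones the values for K4-K27 were 0.317, 0.0427, -0.0667 and -0.179. Their signs differed between clusters for each mark, and within HoxA, HoxC and HoxD between these marks or cell lines. The HoxB values given here were above 0, but others were not. E14 K4-K27 over 5 HoxB genes of the E14 H3K4me3 table gave -0.3, and WT K27-K4 over HoxB in the WT K4-K27 table gave -0.0305. Neighbouring genes in 1 region contributed the same value.

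Enrichment of the E14 reChIPs over IgG–IgG, in the H3K27me3 region at or nearest each start site, spread within each cluster. In HoxA it was highest at Hoxa6, 3.78 on the log2 scale, and lowest at Hoxa13, 2.69, with Hoxa2 at 3.45. HoxB ran from 3.60 at Hoxb7 to 2.53 at Hoxb3, and its end genes Hoxb13 and Hoxb1 had 3.48 and 2.67. HoxC was narrower, from 3.15 at Hoxc12 to 2.40 at Hoxc10, with 2.56 at Hoxc13 and 2.59 at Hoxc4. HoxD ran from 3.76 at Hoxd1 to 1.84 at Hoxd8, with 2.50 at Hoxd13. The regions taken for Hoxd13, Hoxc4 and Hoxd8 lay 1375, 1495 and 1112 bp from the start site. Those for Hoxa13, Hoxc13, Hoxc12 and Hoxc10 lay 771, 581, 225 and 46 bp from it. Values of these genes are those of chromatin beside the start site. The SD over the 4 reChIP libraries was 0.23 to 0.78 at these start sites and only 4 to 136 IgG–IgG reads lay behind each ratio, so differences between neighbours in these orders lay within that spread.

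RefSeq promoter sequences (250 bases before to 50 after a start site, GRCm38.p6) were matched by symbol for 22 of the 38 members, giving 24 promoters. They held 4 to 45 CpG dinucleotides, with a median of 14.5 against 7 for 32851 promoters of all genes, and 20 of the 24 lay above that median. The motif searched was CG, whose occurrences on the 2 strands coincide, and 94.57% of all promoters of this length held at least 1. The promoters of 4 HoxD genes are printed because their start sites span the highest and lowest reChIP levels above and because Hoxd4 lies in, and Hoxd3 and Hoxd1 start on either side of, the stretch that differed in DKO clones, while Hoxd13 lies at the far 5′ end of the cluster. Capitals mark CG.

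Hoxd13 promoter, chr2:74667975-74668274, plus strand: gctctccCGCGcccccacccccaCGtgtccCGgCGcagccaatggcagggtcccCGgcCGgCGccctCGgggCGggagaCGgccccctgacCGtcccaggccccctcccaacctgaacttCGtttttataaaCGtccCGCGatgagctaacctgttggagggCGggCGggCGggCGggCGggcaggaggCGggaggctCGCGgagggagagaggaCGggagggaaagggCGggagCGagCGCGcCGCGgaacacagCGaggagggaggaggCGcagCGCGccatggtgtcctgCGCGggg
Hoxd3 promoter, chr2:74711743-74712042, plus strand: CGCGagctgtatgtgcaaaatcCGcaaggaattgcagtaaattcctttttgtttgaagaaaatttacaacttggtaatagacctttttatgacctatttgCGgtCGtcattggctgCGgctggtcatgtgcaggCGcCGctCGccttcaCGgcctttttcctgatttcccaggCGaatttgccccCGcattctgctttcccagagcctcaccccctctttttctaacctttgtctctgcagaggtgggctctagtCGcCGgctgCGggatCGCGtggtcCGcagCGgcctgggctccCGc
Hoxd4 promoter, chr2:74721728-74722027, plus strand: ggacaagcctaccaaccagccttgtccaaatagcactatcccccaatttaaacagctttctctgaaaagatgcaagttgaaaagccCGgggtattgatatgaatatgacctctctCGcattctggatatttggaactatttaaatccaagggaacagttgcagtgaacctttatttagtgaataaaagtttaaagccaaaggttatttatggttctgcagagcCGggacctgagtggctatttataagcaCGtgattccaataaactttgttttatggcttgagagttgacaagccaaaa
Hoxd1 promoter, chr2:74762730-74763029, plus strand: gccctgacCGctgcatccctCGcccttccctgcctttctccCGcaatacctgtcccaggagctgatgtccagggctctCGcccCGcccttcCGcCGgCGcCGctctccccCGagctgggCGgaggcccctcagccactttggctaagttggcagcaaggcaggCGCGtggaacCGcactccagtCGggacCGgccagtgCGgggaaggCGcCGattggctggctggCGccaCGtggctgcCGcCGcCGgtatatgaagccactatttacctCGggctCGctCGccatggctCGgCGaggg

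Hoxd13 held 37 CG, Hoxd1 29, Hoxd3 20 and Hoxd4 only 4, a number reached by 68.62% of all promoters. Over the 19 members with both a start-site region in the WT K4-K27 table and a sequence at the same start site, which lay in 17 regions, the rank correlation of CG number with K4-K27 level was 0.615 in WT and 0.386 in DKO clones. With total H3K4me3 it was 0.377 and with total H3K27me3 0.216 in WT clones. A CG count is a description of these letters and its part in the levels was not tested.

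DKO and WT clones were then compared at Hox regions to ask whether the double knockout altered either mark or their co-occurrence. In the K4-K27 reChIP 1 of 54 Hox regions was called lower, against 1.96% of 37723 regions, and 0 were called higher, against 0.0928%. In the K27-K4 reChIP 3 of 34 were called lower, against 1.44% of 46737 regions, and 0 higher, against 0%. No Hox region was called in total H3K4me3 (24 regions, with 4.05% of all called lower and 0.52% higher) or in total H3K27me3 (21 regions, with 0.399% lower and 0.0163% higher). At an unadjusted p below 0.05 in limma, 1 H3K4me3 region and 2 H3K27me3 regions were lower and none higher. All 4 called regions lay in HoxD, in a stretch of the cluster from Hoxd4 to the end of the long Hoxd3 transcript that was delimited after its values were seen.

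No region of HoxA, HoxB or HoxC passed the test in any ChIP. Their median DKO minus WT differences for K4-K27 were -0.26, -0.30 and -0.43, where all regions had -0.01. For K27-K4 they were -0.35, -0.28 and -0.31, where all regions had -0.19. In total H3K4me3 they were 0.11, 0.02 and -0.08, against 0.13 for all regions, and in total H3K27me3 -0.11, 0.03 and -0.04, against 0.14. Centring the libraries moved the K27-K4 median of all regions from -0.19 to 0.03 and that of the Hox regions from -0.35 to -0.13. The lowest difference in these 3 clusters was -0.78, in K27-K4 at HoxA. Both DKO clones lay below both WT clones at 7 of the 38 K4-K27 regions of these clusters, and at 17 of 54 Hox regions in all, where the share over all regions was 23.2%. For K27-K4 the count was 11 of 34 against 33.9%, for total H3K4me3 3 of 24 against 16.6%, and for total H3K27me3 3 of 21 against 20.3%.

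**Figure D4:**
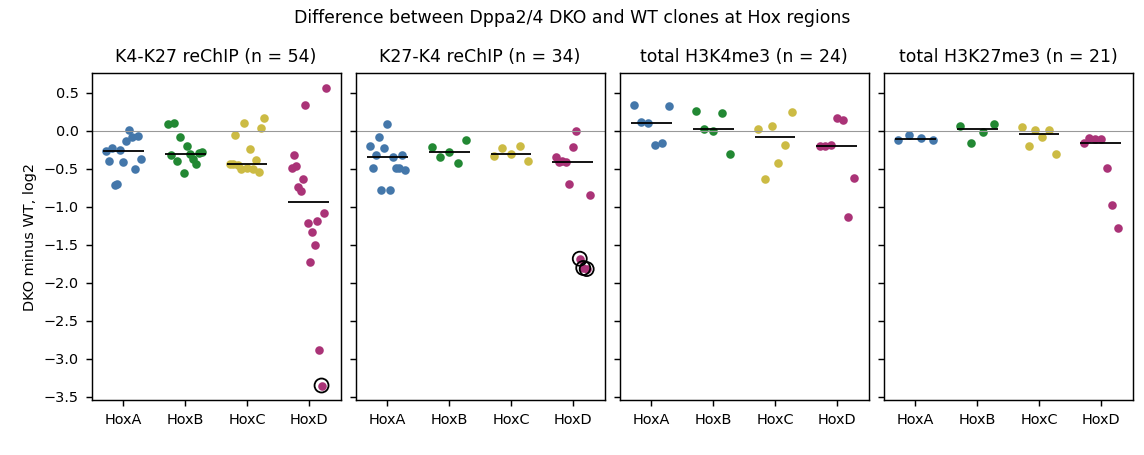
DKO minus WT difference in log2 RPM/kb at each Hox region, by cluster and ChIP, with a bar at the cluster median and a ring around the 4 called regions. The points of HoxA, HoxB and HoxC lie between -0.78 and 0.34, and the called regions are all in HoxD.

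The HoxD stretch was lower in DKO clones in all 4 ChIPs. In K27-K4, the region over Hoxd4 and part of Hoxd3 (chr2:74721451-74729700) had 2.57 and 1.96 in WT clones 57 and 58 and 0.67 and 0.49 in DKO clones 43 and 53. The next (chr2:74730001-74742750) had 2.46 and 1.91 against 0.32 and 0.45, and the last (chr2:74742901-74755200) had 3.02 and 2.48 against 1.29 and 0.57. In each the WT and DKO clones did not overlap, with differences of -1.68 (SE 0.40, adjusted p = 0.0448 in limma), -1.80 (SE 0.40, adjusted p = 0.0278) and -1.82 (SE 0.43, adjusted p = 0.0421). Both DKO clones lay below both WT clones at 33.9% of all K27-K4 regions. Hoxd4 acts in the hindbrain and Hoxd3 in the cervical vertebrae. With libraries centred on their medians none of the 3 was called (adjusted p 0.0773 to 0.113) although the differences stayed at -1.46 to -1.60, and none was called without WT clone 57 or without either DKO clone. Without WT clone 58, 5 Hox regions were called.

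In K4-K27 the called region, at the 3′ end of Hoxd3 (chr2:74745751-74748600), had 2.56 and 2.79 in WT clones, from 155 and 211 reads, and 0.05 and -1.40 in DKO clones, from 31 and 14 reads. The difference was -3.35 (SE 0.79, adjusted p = 0.00327 in limma). The other 6 K4-K27 regions of the stretch did not pass, with differences of -2.89 to -1.19 and adjusted p from 0.0738 to 0.45. In all 7 both DKO clones lay below both WT clones, as at 23.2% of all regions. The stretch was delimited after these values were seen, so that count is no separate support. At the Hoxd4 start site itself K4-K27 was 1.57 and 1.40 against 0.06 and 0.47, a difference of -1.22 (SE 0.85, adjusted p = 0.406). The called K4-K27 region was not called without DKO clone 53, without WT clone 57 or without WT clone 58, with differences of -3.47 to -2.63.

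The in-line totals were lower over the same stretch and did not pass the test. Total H3K27me3 over the region from 74730151 to 74757150 was 2.06 and 1.31 in WT clones and 0.65 and 0.17 in DKO clones, a difference of -1.28 (SE 0.41, adjusted p = 0.119 in limma). Over Hoxd4 it was 1.71 and 1.18 against 0.51 and 0.43, a difference of -0.97. The single total H3K4me3 region of the stretch, within Hoxd3, had 1.17 and 0.72 against -0.22 and -0.16, a difference of -1.13 (SE 0.52, adjusted p = 0.247). All 3 had both DKO clones below both WT clones, as had 16.6% of all regions for total H3K4me3 and 20.3% for total H3K27me3. That count too comes from a stretch delimited after its values were seen.

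Differences on either side of the stretch were smaller and were not called. In the rest of HoxD the median differences were -0.49 in K4-K27, -0.40 in K27-K4, -0.19 in total H3K4me3 and -0.11 in total H3K27me3. Both DKO clones lay below both WT clones there at 3 of 9 K4-K27 and 3 of 8 K27-K4 regions. The shares over all regions were 23.2% and 33.9%. For total H3K4me3 the count was 0 of 6 and for total H3K27me3 1 of 5, against 16.6% and 20.3%. Hoxd13 had K4-K27 of 4.34 and 3.58 in WT and 3.75 and 3.19 in DKO clones, which overlapped. At the Hoxd3 start site the values were 3.27 and 2.57 against 2.79 and 1.77, which also overlapped. Hoxd8, with 3.61 and 3.27 against 3.05 and 2.23, did not overlap. Neither did Hoxd9, with 2.87 and 2.82 against 2.50 and 1.72. Hoxd1, on the 3′ side, had 4.61 and 3.93 against 3.71 and 2.67, which did not overlap, with a difference of -1.08 (SE 0.66, adjusted p = 0.326 in limma). In the same region K27-K4 was 4.89 and 3.80 against 3.58 and 3.37, which did not overlap either. Total H3K4me3 there was 2.77 and 1.48 against 1.46 and 1.59, a difference of -0.60. Its total H3K27me3 was 2.50 and 1.71 against 2.42 and 1.91.

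**Figure D5:**
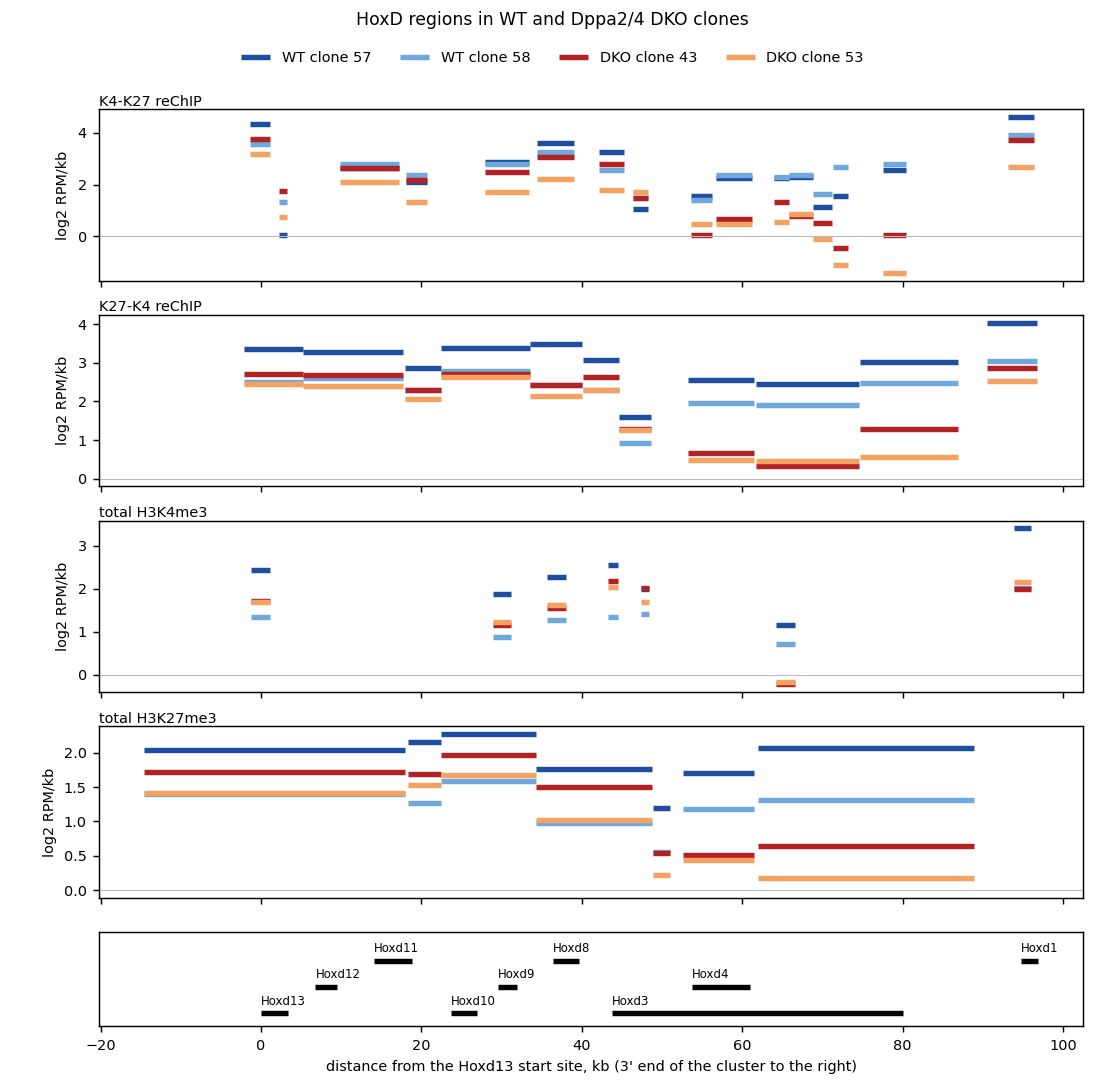
Log2 RPM/kb of each HoxD region in WT clones 57 and 58 (blue) and DKO clones 43 and 53 (red and orange) against distance in kb from the Hoxd13 start site, for the 4 ChIPs, with the genes below. Between about Hoxd4 and the end of Hoxd3, a stretch delimited after its values were seen, both DKO clones lie below both WT clones in every ChIP. Over Hoxd13 to Hoxd8 the clones interleave in most regions.

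The clone libraries were also averaged over the E14 regions, which were listed from other cells. Over the 49050 bp that hold Hoxd4, Hoxd1 and the 3′ part of Hoxd3, DKO minus WT was -1.27 in K4-K27, -1.36 in K27-K4, -0.75 in total H3K4me3 and -0.91 in total H3K27me3, and both DKO clones lay below both WT clones in each ChIP. It was the only one of the 8 Hox regions to do so in all 4 ChIPs, against 6.94% of the 21857 shared regions. With 8 regions, a count of 1 cannot be told apart from that share. The region also holds the stretch delimited after its values were seen in the same libraries, so it gives no separate support. The 63450 bp from Hoxd13 to the Hoxd3 start had -0.45, -0.41, -0.07 and -0.13. No IgG–IgG or input library of a DKO clone was used here, so the amount of DNA recovered from the stretch without enrichment was not measured in these clones, and the cause of the difference was not tested.

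Genes related to the clusters were examined from lists chosen for this purpose. Cdx and ParaHox genes are homeobox genes related to the Hox clusters, and the Cdx genes regulate Hox expression. Among them 1 of 8 K4-K27 regions was called lower in DKO clones, against 1.96% of all regions. It was at Pdx1, the pancreatic and duodenal homeobox gene, with 3.31 and 2.28 in WT against -0.02 and 0.73 in DKO clones (difference -2.44, SE 0.64, adjusted p = 0.0119 in limma). No region of this list was called in K27-K4 (11 regions), total H3K4me3 (5) or total H3K27me3 (12). No region of the TALE homeodomain cofactors, which bind DNA with Hox proteins, was called in any ChIP (33, 35, 39 and 37 regions), nor any of Evx1 and Evx2, the even-skipped genes at the 5′ ends of HoxA and HoxD (5, 2, 2 and 2 regions), nor of the Trithorax and Polycomb writer genes (12, 1, 20 and 0 regions). Among 7 other genes next to the clusters, 1 of 23 total H3K4me3 regions was called lower, a share close to the 4.05% of all regions, at Skap1 beside HoxB, with 2.27 and 1.05 against -0.18 and -0.18 (difference -1.84, SE 0.55, adjusted p = 0.0251). The HoxD neighbours Lnpk and Mtx2 had K4-K27 differences of 0.19 (SE 0.63) and -0.15 (SE 0.61). In E14, total H3K27me3 exceeded total H3K4me3 at 6 of 6 Cdx and ParaHox regions and 2 of 2 Evx regions but at 0 of 6 writer-gene regions, of which all 6 were called lower. Over all shared regions the difference was above 0 at 31.4%, and 44.3% were called lower.

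Markers of other cell types that serum cultures can hold were given alongside. In DKO against WT clones 1 of 7 K4-K27 regions and 1 of 9 K27-K4 regions of 4 endoderm genes were called lower, both at Gata4 (differences -4.33, SE 1.15, and -3.39, SE 0.55), and no region of the neural, mesoderm or stem cell lists was called in any ChIP. The shares called lower over all regions were 1.96% in K4-K27 and 1.44% in K27-K4. The values given for these genes are marks on chromatin and not transcripts, so they do not measure the share of such cells, and their part in the Hox differences was not tested.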

How the data were processed

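The authors sequenced reChIP, in-line total and IgG–IgG libraries, and the sources name Trim Galore 0.6.6, BWA 0.7.13, SAMtools 1.9 and Picard 2.6.0, on mm10/GRCm38.p6, with deepTools 3.5.0 for coverage tracks not used here. MACS2 is named without a role. According to the methods, peaks were called in each replicate with EPIC2 against IgG–IgG, filtered on enrichment and false discovery rate and on blacklisted regions, and intersected between replicates. The 12 deposited tables list genomic regions with log2 RPM/kb for each library, made by the authors in SeqMonk without IgG subtraction; a value for no reads was entered as 0.9 reads, and read numbers given here were recovered from the value, the region length and the library size. The values are log2 and not counts, so limma 3.58.1 (trend and robust moderation, Benjamini-Hochberg over all regions) was used in place of a count test. No column of the authors' own comparisons was used, and 32 columns of per-sample values were left out because they matched no sample described here.

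For DKO against WT, regions of the WT table were taken first, with non-overlapping DKO regions added; within E14 and WT cells, regions listed in both reChIP tables were tested. Regions shared at least 1 bp with a gene or start-site window. Start sites were those of RefSeq mRNAs. Members and gene lists were chosen with earlier results of these data known. Genes named were the ends of each cluster, its highest and lowest start site by E14 reChIP enrichment, every gene with a called DKO region, the 5 largest antibody-order differences, and Dppa2 and Dppa4; the WT start sites ranked highest and lowest were named after their values were seen.

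E14 replicate numbers mark a shared sequencing batch and WT numbers a shared clone, so the numbers pair the samples; deviations from group means of same-numbered libraries correlated at -0.215 to 0.576 in E14 and -0.0735 in WT. In simulated data with 200 regions shifted, a shift of 2 was recovered in 9% of regions for DKO K4-K27, 14% for K27-K4, 17% for total H3K4me3 and 54% for total H3K27me3, and a shift of 4 in 50%, 55%, 80% and 98%.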

Additional observations from a re-analysis of the deposited data

How the results depend on the processing

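Among Hox regions called lower in DKO clones, for K4-K27 (1 of 54) the count was 0 with quantile normalisation, 0 within 1500 bp or 500 bp of a start site, 0 for regions listed in both tables, 2 without a variance trend, 4 with all 16 clone libraries in one fit and 0 to 1 when a clone was left out. For K27-K4 (3 of 34) it was 0 with median centring, 0 without a trend, 1 within 1500 bp or 500 bp, 0 with DKO-table regions taken first (chosen after seeing the data) and 0 to 5 when a clone was left out. Leaving out WT clone 58 gave 2 in total H3K4me3 and 1 in total H3K27me3, and the range over clones was 0 to 2 and 0 to 1. All 4 called regions kept their sign under the 11 or 12 alternatives run. The cause of these changes was not tested.

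For E14 reChIPs against totals (8 of 8 called), median centring and quantile normalisation gave 0, and leaving out a replicate 1 to 8. For E14 H3K27me3 against H3K4me3 (1 of 8), centring and quantile normalisation gave 8, no minimum difference 7, a minimum of 0.5 gave 6 and all 8 libraries in one fit 0. The same balance in WT clones (5 of 52) was 49 with centring or quantile normalisation, 12 without a trend, 3 without the lowest quartile, 1 within 1500 bp and 0 within 500 bp of a start site, and 0 to 9 when a library was left out. The replicate block gave 30 of 52 there, raised E14 order calls over all regions from 0 to 1523, and changed no other call at a Hox region. Crossing the pairs in the E14 balance, chosen after seeing the data, gave 1 of 8 as before.

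The sign of the E14 antibody-order median (0.28) turned to -0.40 with centring, -0.33 with quantile normalisation and -0.31 without the K27-K4 library of replicate 2. The median E14 reChIP level over IgG–IgG, 2.89, was 2.39 without subtraction. Each single E14 order difference, none of them called, changed sign under the same 3 settings. Under centring and quantile normalisation it was -0.38 and -0.33 at Hoxa2 to Hoxa11, -0.43 and -0.36 at Hoxa13, -0.38 and -0.29 at Hoxb13, -0.40 and -0.35 at Hoxb2 to Hoxb9, -0.39 and -0.27 at Hoxb1, -0.44 and -0.37 at HoxC, -0.36 and -0.31 at Hoxd3 to Hoxd13, and -0.41 and -0.34 at Hoxd1 and Hoxd4. With a library left out, the same 8 differences ranged, in that order, from -0.31 to 0.90, -0.33 to 0.84, -0.16 to 0.76, -0.31 to 0.87, -0.14 to 0.71, -0.33 to 0.81, -0.33 to 0.97 and -0.30 to 0.83. Of the other single-region results, 234 kept their direction and side of the threshold, 44 lost the call and 25 gained it. Over all regions, calls lower in DKO clones moved for K4-K27 from 741 to 2897 without a trend, 4311 in one fit, 360 with quantile normalisation and 32 for regions in both tables, for K27-K4 from 671 to 201 without a trend and 265 in both tables, for total H3K4me3 from 1746 to 2896 with centring, 748 in one fit and 1 in both tables, and for total H3K27me3 from 172 to 0 with centring, quantile normalisation or one fit and 3 in both tables. E14 reChIP calls moved from 6404 to 1099, 323 and 13160 with centring, quantile normalisation and one fit. Leaving out a clone gave 394 to 1073 lower calls over all regions in K4-K27 (highest without WT clone 58), 387 to 2072 in K27-K4 (highest without WT clone 58), 76 (without DKO clone 43) to 4797 (without WT clone 58) in total H3K4me3 and 140 to 502 in total H3K27me3 (highest without DKO clone 53). Leaving out a replicate gave 1702 to 2950 E14 reChIP calls. Without the lowest quartile of regions the lower calls were 1033 in K27-K4, 558 in total H3K4me3 and 326 in total H3K27me3. The WT balance, 428 higher calls, had 744 without a trend, 45 without the lowest quartile and 5 to 755 with a library left out (lowest without H3K27me3 of clone 57, highest without H3K4me3 of clone 58), and the E14 balance, 989, had 199 in one fit. With 2 clones a genotype, the simulated recovery of a shift of 2 was 9% to 17% in the reChIPs and H3K4me3, so smaller Hox differences may be missed, and no DKO background library was used.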
